A study of Mus musculus with 18 samples.

Results

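PI3Ki was compared with Vehicle in orthotopic 4T1 tumors, with 4 PI3Ki tumors and 5 Vehicle tumors of the 18 tumors sequenced. The 9 tumors were taken by their treatment labels, and all 15282 of 22792 genes with enough counts were compared. 4T1 is a transplantable mouse mammary carcinoma line used as a model of triple-negative breast cancer, and 300000 of its cells were placed in the mammary fat pad of 8-week-old female Balb/c mice, whose immune system is intact. From day 7 to day 21 the PI3Ki mice received CLR457, an inhibitor of all class I PI3K isoforms, at 20 mg/kg by gavage 2 times a day, and the Vehicle mice received vehicle alone. The other tumors came from mice given SHP099 at 100 mg/kg, an allosteric inhibitor of the phosphatase SHP2 (SHP2i, 4 tumors), or both compounds (Combo, 5 tumors). Collection took place on day 21, with the last dose given 3 h earlier. All groups carried the same tumor cells in the same strain, so each library mixes 4T1 carcinoma cells with the vessels, stroma and immune cells of the host. No PI3Ki tumor numbered 4 was analysed here.

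Class I PI3K makes the lipid PIP3 below activated growth factor receptors, and PIP3 recruits the kinase Akt. Akt holds the FOXO transcription factors in the cytoplasm, and with mTORC1 it favours growth, ribosome production and the processing of SREBP, the factor that drives genes of sterol and fatty acid synthesis. In endothelium the same pathway acts below VEGF receptors and feeds nitric oxide synthesis.

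RNA was read as counts per gene, with totals of 23.78 M to 26.62 M in PI3Ki and 21.16 M to 24.79 M in Vehicle. Levels are given as CPM, counts per M counts after TMM scaling, and differences as log2 fold changes of PI3Ki over Vehicle with edgeR's quasi-likelihood test and Benjamini-Hochberg adjustment over all 15282 genes. Higher and lower below mean an adjusted p under 0.05. Skeletal muscle genes set the PI3Ki tumors apart. The summed level of 167 muscle-specific genes was 2167 to 4226 CPM in the 4 PI3Ki tumors and 779 to 944 CPM in the 5 Vehicle tumors. A gene was called a muscle gene when it was on these lists, or when its level followed theirs within groups with a correlation over 0.7, which gave 223 of the genes tested. Of these 115 were higher upon PI3Ki and 0 lower, where 2.69% of all genes were higher and 2.42% lower. They are left out of the counts over all genes below. Counts over a list cover all its tested members, also the few that are muscle genes, unless said otherwise.

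**Figure D1:**
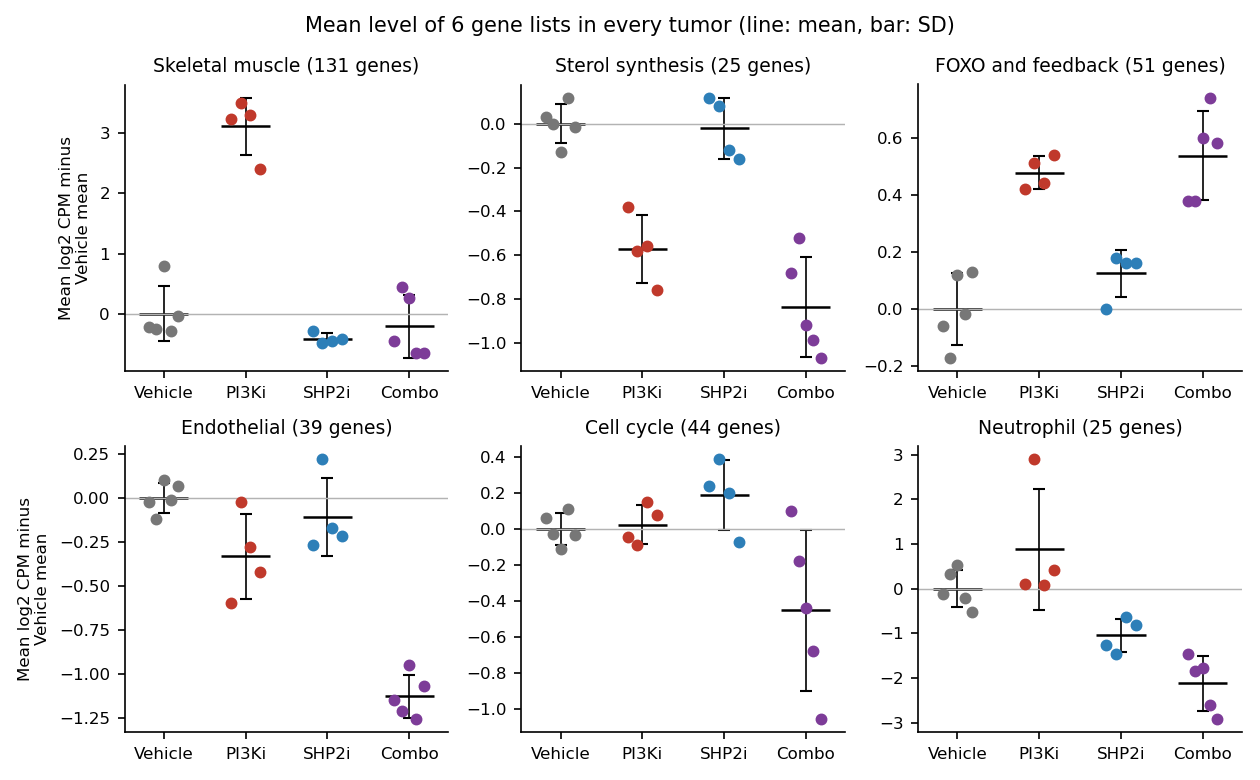
Mean log2 CPM of the tested genes of 6 lists in each of the 18 tumors, with the mean of the Vehicle tumors set to 0. Points are tumors, lines group means and bars the SD. Muscle genes are high in all 4 PI3Ki tumors and not in Combo, sterol synthesis genes are low in PI3Ki and Combo, and 1 PI3Ki tumor stands apart in neutrophil genes.

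Apart from muscle genes, 370 genes were lower and 296 higher upon PI3Ki. The shares of all genes given above include the muscle genes. With an absolute log2 fold change over 1 as well, 49 genes were lower and 109 higher. With the muscle genes kept in, 0.321% of all genes were lower and 1.43% higher, and 109 of those 218 higher genes were muscle genes. The median log2 fold change over all genes was 0.012. The falls were small, with a median of -0.46 among the 370, and the rises had a median of 0.68. The tumors of both groups did not overlap for 334 of the 370 and for 239 of the 296, where 5.36% of all genes were separated downwards and 5.16% upwards. The calls came from the same tumors, so this high share is partly built in and is no separate support. Leaving out any 1 of the 18 tumors gave 167 to 444 lower and 139 to 357 higher genes, and the counts moved by over 1.5 times without Vehicle replicate 2 (219 and 162), Vehicle replicate 4 (205 and 139), PI3Ki replicate 1 (188 and 181), PI3Ki replicate 5 (167 and 195) and, for the higher genes, Vehicle replicate 3 (190).

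The muscle level and the treatment cannot be told apart in these 9 tumors, since the mean log2 CPM of the muscle lists was 2.18 to 3.27 in PI3Ki and -0.52 to 0.58 in Vehicle. With that level as a covariate, edgeR called 0 genes, with 1430 at an unadjusted p under 0.05 and a smallest adjusted p of 0.157. Standard errors were 3.06 times larger at the median. The fitted direction stayed for 363 of the 370 lower genes and for 243 of the 296 higher genes, and for 10016 of all 15282 genes. The other tumors give a reading without this difference. Between Combo and SHP2i, which differ by CLR457 and share no tumor with PI3Ki or Vehicle, the muscle level overlapped (-0.87 to 0.23 and -0.71 to -0.50). Of the 370 genes lower upon PI3Ki, 204 (55.1%) were also lower in Combo than in SHP2i and 1 was higher, while 10.3% of all genes were lower there. Of the 296 higher genes, 122 (41.2%) were also higher and 5 were lower, against 11.8% of all genes. The 2 effects differed by the interaction test for 22 of the lower and 39 of the higher genes, and for 2.47% of all genes. Of the 115 muscle genes, 4 were also higher in Combo than in SHP2i.

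**Figure D2:**
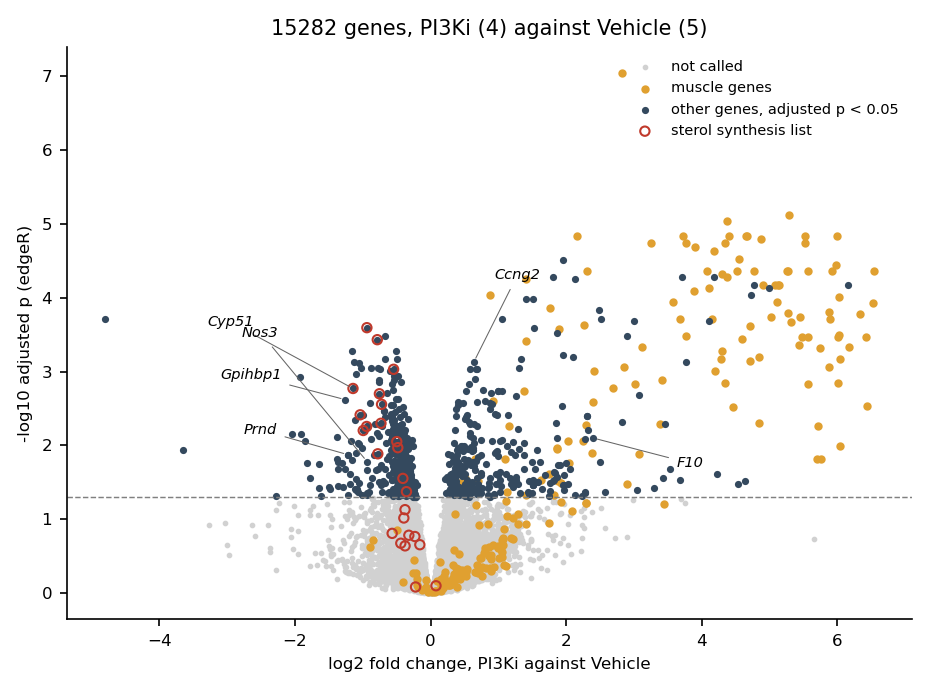
Each point is 1 of 15282 genes, with the log2 fold change of PI3Ki over Vehicle on the x axis and -log10 of edgeR's adjusted p on the y axis. Muscle genes are drawn in orange and reach the far right together with other called genes, the dashed line marks an adjusted p of 0.05, and circles mark the 25 sterol synthesis genes, 24 of which lie left of 0.

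Many genes of sterol synthesis fell. Of 25 tested genes of the pathway and its regulators, 15 were lower upon PI3Ki and 0 higher, 24 had a fold change below 0, and the median log2 fold change was -0.50. The same 15 were lower in Combo than in SHP2i, where 23 of the 25 were lower with a median of -0.72. Leaving out any 1 of the 18 tumors gave 12 to 16 lower genes. With the muscle covariate, which ended every call, 24 of the 25 stayed below 0 with a median of -1.09 and a median standard error of 0.393. Regulatory sequences of Cyp51, Hsd17b7, Idi1 and Hmgcs1 are shown because these genes moved together. They are the 250 bases before the RefSeq start site (GRCm38.p6), read 5′ to 3′ on the strand of the gene, with capitals for the CCAAT box in either direction (CCAAT or ATTGG), the element bound by NF-Y, and for CACCCCAC, letters of the sterol response element. Cyp51, Hsd17b7 and Idi1 had the largest falls among the lower genes with a promoter entry that held a CCAAT box. Hmgcs1 was added because its sequence held both motifs, the only 1 of the 11 lower sterol genes with an entry to do so. Cyp51 lies on the minus strand (chr5:4104698-4104947), Hsd17b7 on the minus strand (chr1:169969206-169969455), and Idi1 (chr13:8885356-8885605) and Hmgcs1 (chr13:119690101-119690350) on the plus strand.
Cyp51: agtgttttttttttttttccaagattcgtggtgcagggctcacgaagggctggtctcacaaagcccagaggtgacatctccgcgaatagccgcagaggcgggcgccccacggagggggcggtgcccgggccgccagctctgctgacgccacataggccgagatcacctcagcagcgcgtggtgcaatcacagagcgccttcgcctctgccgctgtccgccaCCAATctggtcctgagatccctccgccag
Hsd17b7: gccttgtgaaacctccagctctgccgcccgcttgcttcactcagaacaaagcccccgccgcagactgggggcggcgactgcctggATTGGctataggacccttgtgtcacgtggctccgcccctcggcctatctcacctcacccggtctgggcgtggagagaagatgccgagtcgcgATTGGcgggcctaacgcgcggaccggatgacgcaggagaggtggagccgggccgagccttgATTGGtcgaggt
Idi1: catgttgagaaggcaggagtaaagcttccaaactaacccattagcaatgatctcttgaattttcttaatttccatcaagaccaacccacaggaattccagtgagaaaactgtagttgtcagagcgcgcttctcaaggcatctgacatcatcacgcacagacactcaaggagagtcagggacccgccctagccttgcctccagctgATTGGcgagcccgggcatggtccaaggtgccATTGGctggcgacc
Hmgcs1: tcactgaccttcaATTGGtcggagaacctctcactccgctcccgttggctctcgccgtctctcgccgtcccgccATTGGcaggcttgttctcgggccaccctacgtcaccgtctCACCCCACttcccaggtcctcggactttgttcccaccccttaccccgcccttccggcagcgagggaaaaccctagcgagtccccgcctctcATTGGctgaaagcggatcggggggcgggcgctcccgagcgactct

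A CCAAT box was present before at least 1 start site in 16 of the 17 sterol genes that had an entry (94.1%), and in 4809 of 12029 tested genes with an entry (40%). CACCCCAC, on either strand, was present in 2 of the 17 (11.8%) and in 3.47% of all. Hsd17b7 and Hmgcs1 held 3 CCAAT boxes each. A match is a run of letters and not a site shown to be bound.

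Along the pathway, Acat2 forms acetoacetyl-CoA and Hmgcs1 joins it to a further acetyl unit. Hmgcs1 was at 130, 112, 115, 133 and 117 CPM in the Vehicle tumors and at 83.3, 67.4, 75.6 and 61.2 CPM in the PI3Ki tumors. All 4 PI3Ki tumors lay below all 5 Vehicle tumors, with a log2 fold change of -0.75 (SE 0.13, adjusted p = 0.002 by edgeR). Acat2 (-0.48) and Mvk, mevalonate kinase (-0.50), fell less.

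The isoprenoid steps followed. Idi1, the isopentenyl diphosphate isomerase, was at 51.6 to 70.4 CPM in Vehicle and 26.2 to 34.5 CPM in PI3Ki (log2 fold change -0.99, SE 0.197, adjusted p = 0.00628 by edgeR). Fdps, which makes farnesyl diphosphate, changed by -0.78. Its call was lost without PI3Ki replicate 5 (adjusted p = 0.0512 by edgeR). Sqle, the squalene epoxidase, was at 102 to 118 CPM in the Vehicle tumors and at 53.7 to 73.4 CPM in the PI3Ki tumors (log2 fold change -0.79, adjusted p = 0.00037 by edgeR), and Lss, which closes the sterol rings, changed by -0.73.

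After ring closure, Cyp51 and Hsd17b7 had the largest falls of the list. Cyp51, the lanosterol demethylase, was at 81.6, 81.7, 68.9, 82.6 and 68.9 CPM in Vehicle and at 42.0, 34.5, 36.0 and 26.3 CPM in PI3Ki. Its log2 fold change was -1.14 (SE 0.193, adjusted p = 0.00169 by edgeR) and -1.22 in Combo against SHP2i. Hsd17b7, a ketoreductase of the pathway, was at 16.6 to 23.2 CPM in Vehicle and 6.72 to 12.5 CPM in PI3Ki (-1.04). Msmo1, the methyl sterol oxidase, was at 53.6 to 66.5 CPM in Vehicle and 25.6 to 36.0 CPM in PI3Ki, with the smallest adjusted p of the list (0.000254 by edgeR, log2 fold change -0.94). Sc5d changed by -0.55 and Nsdhl by -0.41. Every one of these separated both groups of tumors.

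Srebf2, which encodes the factor SREBP2, changed by -0.36 (adjusted p = 0.0423 by edgeR). The calls of Srebf2 and Nsdhl were lost without any of 6 and any of 5 of the 9 tumors, with the highest adjusted p, 0.129 and 0.088 by edgeR, without PI3Ki replicate 5. Sterol-related genes outside the list, named after their values were seen, were Aacs, a cytosolic acetoacetyl-CoA synthetase (-0.67), Tmem97 (-0.64) and Insig2 (0.42). Insig2, which retains SREBP in the endoplasmic reticulum, was at 41.8 to 49.4 CPM in Vehicle and 52.7 to 70.9 CPM in PI3Ki. The calls of Tmem97 and Insig2 were lost without PI3Ki replicate 1 or 5 (adjusted p up to 0.0533) and without PI3Ki replicate 1 (adjusted p = 0.052), both by edgeR.

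**Figure D3:**
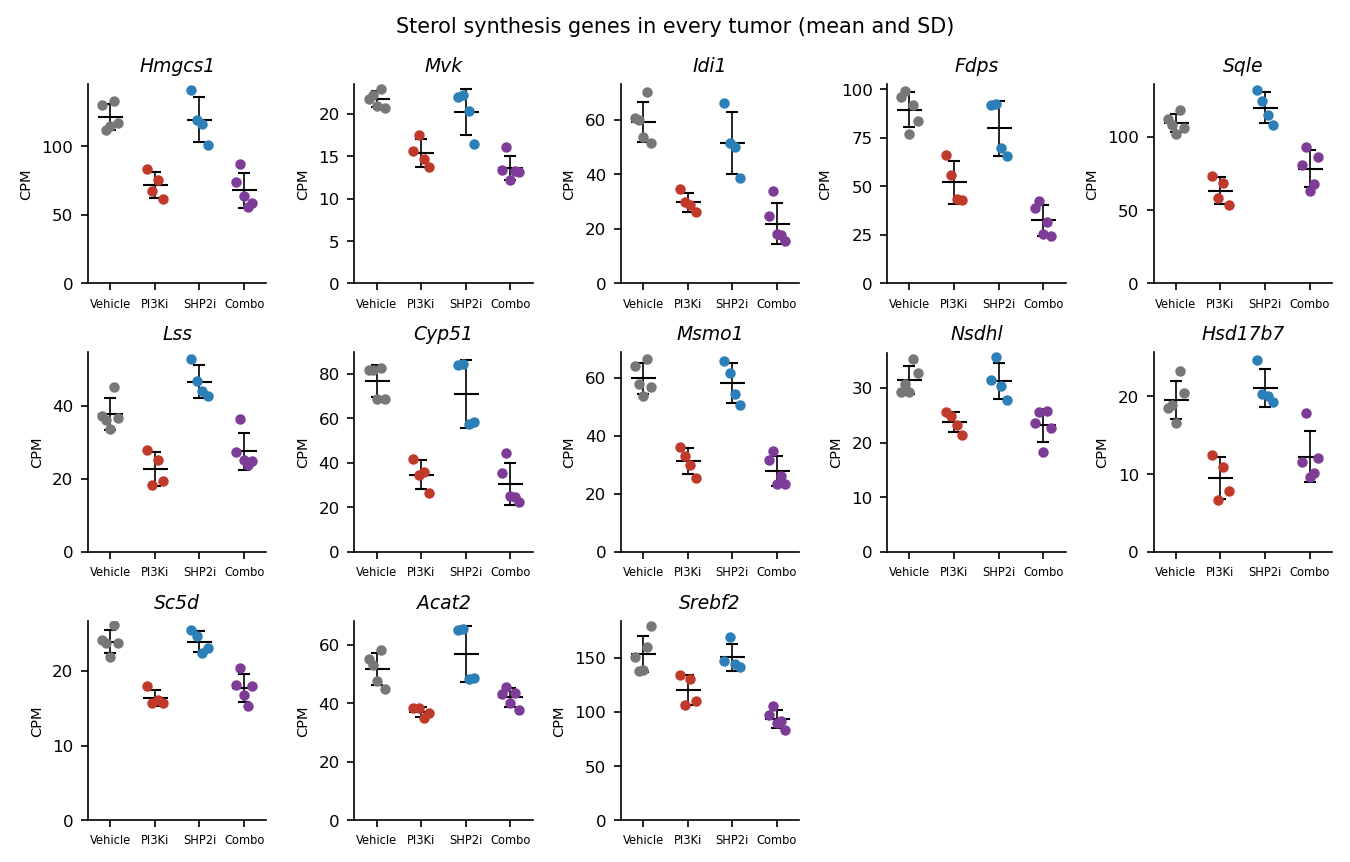
CPM of 13 of the 15 sterol synthesis genes that were lower upon PI3Ki, in pathway order with Acat2 and Srebf2 last, in every tumor of the 4 groups. Points are tumors, and dashes and bars the mean and SD. PI3Ki tumors lie below Vehicle tumors for each gene, and Combo tumors lie low with them.

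Fatty acid synthesis changed less. Of 30 tested genes, 4 were lower and 0 higher, with a median of -0.22, and the 4 act on desaturation and elongation. Fads2, the delta-6 desaturase, was at 29.7, 28.0, 25.3, 35.1 and 29.9 CPM in Vehicle and at 20.2, 15.4, 19.6 and 11.9 CPM in PI3Ki (log2 fold change -0.82, SE 0.158, adjusted p = 0.00509 by edgeR). Scd2, a stearoyl-CoA desaturase, was at 486 to 679 CPM in Vehicle and 346 to 472 CPM in PI3Ki (-0.54). Fads1 (-0.41) and Elovl1 (-0.26) lost their calls without any of 8 and any of 7 of the 9 tumors, with adjusted p up to 0.114 without PI3Ki replicate 5 and up to 0.162 without PI3Ki replicate 1, both by edgeR.

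Energy metabolism showed few calls, where 2.69% of all genes were higher and 2.42% lower. None of 51 respiratory chain genes, 21 genes of the citrate cycle, 27 of glycolysis or 29 of fatty acid oxidation was higher or lower by edgeR, and their medians were 0.022, -0.0055, 0.11 and 0.096. The members with the smallest p were Sdha and Uqcrc2 (0.12 and -0.14), Idh1 and Sucla2 (0.36 and 0.16), Gpi1 and Eno2 (0.22 and 0.70), and Acadm and Pparg (0.24 and -0.76). Idh1, the cytosolic isocitrate dehydrogenase, was at 197 to 224 CPM in Vehicle and 229 to 335 CPM in PI3Ki (adjusted p = 0.065 by edgeR). Adipocyte genes also had 0 of 24 called, with Mest (-0.72) and Pparg first. Of 32 hypoxia genes, 4 were higher and 0 lower, Egln3 (0.49, lost without PI3Ki replicate 1 or 5, adjusted p up to 0.0633 by edgeR), Ddit4, Mxi1 and Ier3. Of 27 genes of the insulin and glucose response, Insr and Zbtb16 (2.10) were higher. In nucleotide and one-carbon metabolism, 3 of 36 genes were lower and 0 higher. Mat2a, which makes S-adenosylmethionine and whose locus overlaps Ggcx and Particl, was at 160, 179, 134, 163 and 133 CPM in Vehicle and at 98.8, 82.3, 95.1 and 83.0 CPM in PI3Ki (log2 fold change -0.78, SE 0.122, adjusted p = 0.000893 by edgeR). Umps (-0.36) and Dhodh (-0.33), which act in pyrimidine synthesis, lost their calls without any of 8 and any of 7 of the 9 tumors, with adjusted p up to 0.137 without PI3Ki replicate 5 and 0.123 without Vehicle replicate 2, both by edgeR.

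Genes of ribosome production were among the falls. No list was written for them, so they were counted by symbol after the values were seen, in the families Utp, Rrp, Nop, Nol and Polr1, which act in rRNA synthesis and processing. Of 40 tested members, 13 were lower and 1 higher, 34 had a fold change below 0 and the median was -0.22. In Combo against SHP2i, 11 of the 13 were lower too. The proteins of the ribosome itself did not share this pattern, with 0 of 62 Rpl and Rps genes called by edgeR and a median of 0.00093. Utp4, a processome subunit, was at 58.0, 60.5, 53.3, 59.0 and 57.6 CPM in Vehicle and at 42.3, 37.5, 43.7 and 38.7 CPM in PI3Ki (log2 fold change -0.51, SE 0.0757, adjusted p = 0.000531 by edgeR). Nop56, a core protein of box C/D particles, was at 173 to 219 CPM in Vehicle and 127 to 138 CPM in PI3Ki (-0.54). Rrp12 (-0.60), Nolc1 (-0.54) and, outside these families, Urb1 (-0.87) fell as well.

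Myc, which encodes a transcription factor of growth, was at 171, 168, 145, 153 and 150 CPM in Vehicle and at 114, 100, 108 and 112 CPM in PI3Ki, without overlap (log2 fold change -0.53, SE 0.101, adjusted p = 0.00456 by edgeR). In Combo against SHP2i its log2 fold change was 0.097, and the 2 effects differed (difference 0.63, adjusted p = 0.0286 by edgeR). Mxi1, which encodes an antagonist of Myc, was at 43.6 to 56.6 CPM in Vehicle and 70.2 to 88.4 CPM in PI3Ki (0.67). Amd1, an enzyme of polyamine synthesis, and Azin2, which protects ornithine decarboxylase, were named after their values were seen. Amd1 was at 96.4 to 125 CPM in Vehicle and 68.8 to 88.6 CPM in PI3Ki (-0.56). Azin2 was at 35.4 to 42.7 CPM in Vehicle and 62.7 to 101 CPM in PI3Ki (1.05).

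Some genes under FOXO control and of feedback to receptors rose. Of 51 tested genes of that list, 11 were higher and 0 lower, 44 had a fold change above 0 and the median was 0.33. In Combo against SHP2i, 27 were higher and 3 lower, and 10 of the 11 were higher in both. Trim63, the only one that is a muscle gene, is left aside. Leaving out any 1 of the 18 tumors gave 6 to 13 higher genes, the fewest without PI3Ki replicate 1. FOXO's core motif GTAAACA, on either strand, was present in the 250 bases before a start site in 3 of 42 list genes with an entry (7.14%), in 0 of the 8 higher ones and in 2.73% of all genes.

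Cell cycle brakes were among them. Ccng2, which encodes cyclin G2, was at 71.0, 64.6, 78.2, 67.7 and 76.7 CPM in Vehicle and at 110, 113, 105 and 119 CPM in PI3Ki. The groups did not overlap (log2 fold change 0.64, SE 0.0984, adjusted p = 0.00074 by edgeR). Cdkn1b, which encodes the inhibitor p27, was at 93.2 to 107 CPM in Vehicle and 114 to 138 CPM in PI3Ki (0.32, adjusted p = 0.0163 by edgeR). Gadd45a, a stress gene that overlaps the transcript E230016M11Rik, was at 98.3, 111, 117, 78.0 and 86.2 CPM in Vehicle and at 323, 177, 175 and 220 CPM in PI3Ki (1.19, adjusted p = 0.0121 by edgeR). Without PI3Ki replicate 1, the adjusted p of Cdkn1b was 0.0653 and that of Gadd45a 0.0556, both by edgeR, and Cdkn1b also lost its call without PI3Ki replicate 5.

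Receptor and autophagy genes were also among them. Insr, the insulin receptor, was at 43.3 to 74.3 CPM in Vehicle and 68.8 to 89.1 CPM in PI3Ki, with 1 Vehicle tumor inside the PI3Ki range (0.49, adjusted p = 0.0197 by edgeR, lost without PI3Ki replicate 1 or 5 with values up to 0.0586). Ulk1, the kinase that starts autophagy, was at 38.7 to 51.7 CPM in Vehicle and 55.3 to 68.0 CPM in PI3Ki (0.45), and Gabarapl1, an autophagosome protein, at 51.6 to 59.3 and 72.7 to 85.3 CPM (0.54). Pnrc1 changed by 0.68. Outside the FOXO list, Ctsl, a lysosomal protease, was at 723 to 813 CPM in Vehicle and 914 to 1422 CPM in PI3Ki (0.63). Rragd (1.82), a Rag GTPase that is also outside it, had a log2 fold change of -0.49 with the muscle covariate and lost its call without any of 7 of the 9 tumors, with an adjusted p up to 0.0739 by edgeR without PI3Ki replicate 2. Of 37 lysosome and autophagy genes, 4 were higher and 0 lower.

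Fbxo32 and Pdk4 are also abundant in muscle. Fbxo32, which encodes the ubiquitin ligase atrogin-1, was at 14.0 to 30.8 CPM in Vehicle and 36.7 to 45.0 CPM in PI3Ki (0.97), and was higher in Combo than in SHP2i too (1.32). Its call was lost without any of 6 of the 9 tumors, with an adjusted p up to 0.0671 by edgeR without Vehicle replicate 4. Pdk4, the kinase that holds back pyruvate dehydrogenase, was at 0.9 to 4.01 CPM in Vehicle and 8.31 to 25.9 CPM in PI3Ki (2.90), and its level followed the muscle level with a within-group correlation of 0.64. With the muscle covariate its log2 fold change was -0.06. Ddit4 (0.64), which encodes the mTORC1 inhibitor REDD1, rose upon PI3Ki and had a log2 fold change of -0.31 in Combo against SHP2i, and these effects differed (adjusted p = 0.0277 by edgeR). It lost its call without Vehicle replicate 4 or PI3Ki replicate 1 (adjusted p up to 0.0789 by edgeR). Further genes with rises in both settings, named after their values were seen, were Tcp11l2 (0.90 and 1.36), Ypel3 (0.88 and 0.83) and Hbp1, a repressor of proliferation genes (0.58 and 0.81).

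The PI3K pathway genes themselves held few calls, where 2.69% of all genes were higher and 2.42% lower, so their counts do not set them apart. Of 51 tested genes, 2 were higher and 1 lower, with a median of 0.049. Pik3r3, the regulatory subunit p55-gamma, was at 5.82, 6.53, 6.10, 7.14 and 5.93 CPM in Vehicle and at 1.96, 4.41, 2.87 and 3.26 CPM in PI3Ki. It was lower in every PI3Ki tumor (log2 fold change -1.01, SE 0.217, adjusted p = 0.0108 by edgeR) and in Combo against SHP2i (-1.20). The catalytic subunit genes Pik3ca (0.18), Pik3cb (-0.085), Pik3cd (0.29) and Pik3cg (-0.12) did not pass the test, nor did Pik3r1 (-0.28), Pik3r2 (0.036), Pik3r5 (0.49) and Pik3r6 (0.58). Akt1 and Akt2 had log2 fold changes of -0.088 and 0.20 and did not pass the test either. The adaptors Gab1 (0.70) and Gab2 (0.32) were higher. Gab1 followed the muscle level with a correlation of 0.60 and had a log2 fold change of -0.40 with the muscle covariate. Both lost their calls without PI3Ki replicate 2 (adjusted p = 0.0527 and 0.119 by edgeR), and Gab2 also lost it without any of 6 others of the 9. Beyond the core, Pdgfb, a growth factor made by endothelium among other cells, was at 92.3 to 111 CPM in Vehicle and 53.8 to 75.0 CPM in PI3Ki (-0.59, adjusted p = 0.00378 by edgeR). Jun was higher (0.50), and ERK feedback genes had 1 of 26 higher (Ier3, 1.00, lost without PI3Ki replicate 1) and 1 lower (Lif, -0.56, lost without any of 7 of the 9 tumors), with adjusted p of 0.0586 without PI3Ki replicate 1 and up to 0.151 without PI3Ki replicate 5, by edgeR.

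A few vessel genes fell. Of 39 pan-endothelial genes, 5 were lower and 0 higher, 35 had a fold change below 0 and the median was -0.27. The 5 are Nos3, She, Egfl7, Shank3 and Gpr4. In Combo against SHP2i all 5 were lower, with 32 of the 39 lower and a median of -1.06, and the 2 effects differed by the interaction test for 8 of the 39. In bulk tumors, fewer endothelial cells and less RNA per cell cannot be told apart. The mean of the list did not separate the groups, since PI3Ki replicate 2 lay at -0.027 and the Vehicle tumors at -0.12 to 0.098.

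Nos3, the endothelial nitric oxide synthase, whose locus overlaps Atg9b, was at 17.1, 17.4, 17.3, 18.8 and 21.3 CPM in Vehicle and at 10.6, 9.66, 8.70 and 9.46 CPM in PI3Ki. All PI3Ki tumors lay below all Vehicle tumors (log2 fold change -0.94, SE 0.215, adjusted p = 0.0165 by edgeR). Egfl7, a secreted endothelial protein whose locus overlaps 2 microRNA genes, was at 46.5 to 56.3 CPM in Vehicle and 25.3 to 42.4 CPM in PI3Ki (-0.65). She changed by -1.09, Shank3 by -0.71 and the proton-sensing receptor gene Gpr4 by -0.62. Single tumors mattered for 4 of the 5: the adjusted p by edgeR was 0.0503 for Nos3 without PI3Ki replicate 5 and 0.0507 for She without PI3Ki replicate 1, while Shank3 and Gpr4 each lost the call without any of 6 of the 9 tumors, with values up to 0.0976 (without PI3Ki replicate 1) and 0.0686 (without Vehicle replicate 4). Without PI3Ki replicate 1, 2 of the 39 genes were lower. The defining markers Pecam1, Cdh5 and Kdr, named after their values were seen, missed the threshold with log2 fold changes of -0.19, -0.57 and -0.33 (adjusted p = 0.49, 0.0512 and 0.352 by edgeR). All 3 were lower in Combo than in SHP2i (-1.03, -1.70 and -1.53), and the effects differed (adjusted p = 0.0276, 0.0154 and 0.0239 by edgeR).

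Among capillary and sprouting genes, Gpihbp1, which carries lipoprotein lipase to the capillary lumen, was at 23.6, 25.8, 28.3, 21.5 and 24.3 CPM in Vehicle and at 10.5, 10.2, 10.1 and 10.4 CPM in PI3Ki. The 4 PI3Ki values were nearly equal and below every Vehicle value (log2 fold change -1.26, SE 0.221, adjusted p = 0.0024 by edgeR). Prnd, the prion-like protein of sprouting endothelium, was at 37.4 to 47.7 CPM in Vehicle and 12.8 to 24.5 CPM in PI3Ki (-1.22). It fell further in Combo against SHP2i (-3.01), and the difference passed the test (-1.79, adjusted p = 0.0212 by edgeR). The call upon PI3Ki was lost without PI3Ki replicate 5 (adjusted p = 0.0512 by edgeR). Apln, the tip cell ligand apelin, was at 129 to 164 CPM in Vehicle and 55.0 to 110 CPM in PI3Ki (-0.93, adjusted p = 0.00547 by edgeR), and Mcam, of endothelium and pericytes, at 114 to 143 and 69.1 to 95.7 CPM (-0.58).

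Pgf, a ligand of the receptor VEGFR1, changed by -0.53 and the homeobox gene Meox2 by -0.78. Flt4, the receptor VEGFR3, changed by -0.73, Jag1 by -0.49 and Jag2, also a Notch ligand, by -0.47. Each of these 5 lost its call without some of the 9 tumors (3 for Pgf, 2 for Meox2, 6 for Flt4 and 7 each for Jag1 and Jag2), with adjusted p by edgeR up to 0.0577, 0.111 and 0.149 for Pgf, Flt4 and Jag1 without PI3Ki replicate 5, 0.0754 for Meox2 without PI3Ki replicate 1 and 0.0785 for Jag2 without Vehicle replicate 4. Over the 152 tested vessel genes that are not muscle genes, 14 were lower and 6 higher, with a median of -0.018. Over all 15059 tested genes that are not muscle genes, 370 were lower and 296 higher. The 14 vessel genes were also lower in Combo against SHP2i. Vessel genes fell broadly there, with 71 of all 158 tested lower and a median of -0.52, where 10.3% of all genes were lower.

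The rises in the vessel lists were of other kinds. Selp, the P-selectin that captures leukocytes, was at 16.2, 12.6, 17.1, 14.4 and 14.1 CPM in Vehicle and at 23.2, 55.3, 31.5 and 31.9 CPM in PI3Ki (1.26, SE 0.218, adjusted p = 0.00212 by edgeR). Its log2 fold change was 0.96 without PI3Ki replicate 2, its highest tumor, and 0.36 with the muscle covariate. The effect differed in Combo against SHP2i by the interaction test (difference -1.41). Esm1, of tip cells, was at 32.7 to 47.1 CPM in Vehicle and 59.7 to 90.8 CPM in PI3Ki (0.87), with a call lost without any of the 9 tumors (adjusted p up to 0.156 by edgeR). Its counts cannot be told apart here from those of its neighbour Gzmk, a T and NK cell gene with close CPM in every tumor. Car4, a carbonic anhydrase, was at 2.66 to 6.46 CPM in Vehicle and 6.79 to 27 CPM in PI3Ki (2.00), and lost its call without any of 3 tumors (adjusted p up to 0.07 by edgeR without PI3Ki replicate 5). Vegfa, named after its values were seen, was at 90.5 to 148 CPM in Vehicle and 104 to 202 CPM in PI3Ki (0.60, SE 0.263, adjusted p = 0.214 by edgeR). Vessel genes named after their values were seen were Bcl6b (-1.13), Thsd1 (-1.10), Pcdh12 (-1.0) and Rapgef5 (-1.18), and each was lower in Combo than in SHP2i (-1.96, -1.91, -1.92 and -1.46). Bcl6b was at 17.9 to 20.8 CPM in Vehicle and 7.78 to 9.70 CPM in PI3Ki.

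**Figure D4:**
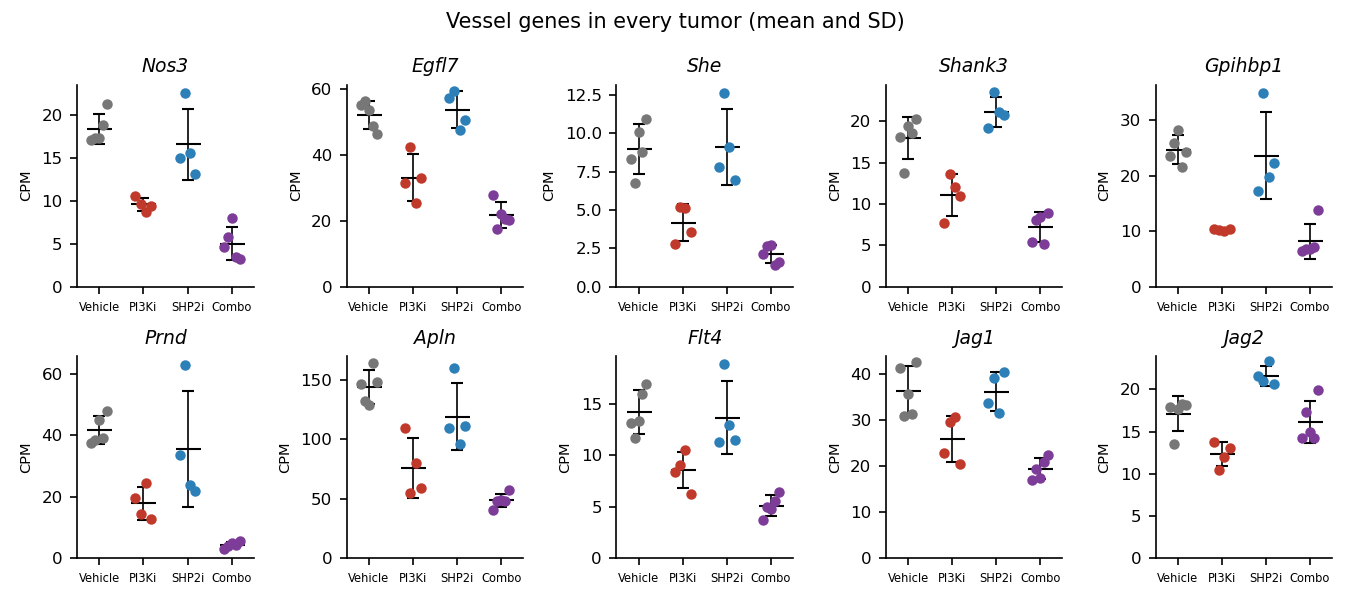
CPM of 10 vessel genes that were lower upon PI3Ki, in every tumor of the 4 groups. Points are tumors, and dashes and bars the mean and SD. PI3Ki tumors lie below Vehicle tumors, with 1 Vehicle tumor inside the PI3Ki range for Jag2, and Combo tumors lie lower still for Prnd and Nos3.

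Over the carcinoma lists together, 8 of 199 tested genes were higher and 2 lower, where 2.69% of all genes were higher and 2.42% lower. None of 44 cell cycle genes was higher or lower by edgeR, with a median of 0.051 and list means of -0.11 to 0.11 in Vehicle and -0.087 to 0.15 in PI3Ki. The members with the smallest p were Ube2c (0.46) and Ccne1 (-0.31). In Combo against SHP2i 31 of the 44 were lower with a median of -0.61, and the effects differed for 2 of the 44. Of 47 epithelial genes, 1 was higher, Elf3, at 4.15 to 5.96 CPM in Vehicle and 4.80 to 15.6 CPM in PI3Ki (1.02), and its call was lost without any of 7 of the 9 tumors (adjusted p up to 0.183 by edgeR without PI3Ki replicate 5). The median of the 47 was -0.14, with 30 below 0. Their list means spread widely in PI3Ki, from -1.38 to 0.45, against -0.19 to 0.30 in Vehicle. The 15 tested mammary secretory genes had a median of -0.52, with list means of -1.99 to 0.61 in PI3Ki and -0.97 to 0.62 in Vehicle. None of 32 genes of epithelial-mesenchymal transition was called, with Snai1 (-0.36) and Tgfb2 (-0.76) first. Of the apoptosis genes, Bid (-0.44) was lower and Bmf (0.79) missed the threshold (adjusted p = 0.0584 by edgeR). Xdh, an enzyme of purine breakdown and milk fat secretion, was at 172 to 236 CPM in Vehicle and 296 to 341 CPM in PI3Ki (0.71, lost without any of 7 of the 9 tumors, adjusted p up to 0.101 by edgeR without Vehicle replicate 2).

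Further genes were chosen for the size of their change or after their values were seen. Has2, the main hyaluronan synthase, was at 142, 93.9, 87.6, 94.8 and 115 CPM in Vehicle and at 59.5, 49.2, 57.9 and 42.1 CPM in PI3Ki (-1.03, SE 0.162, adjusted p = 0.000893 by edgeR) and fell in Combo against SHP2i too (-1.15). Cadm1, a cell adhesion molecule, was at 35.4 to 77.1 CPM in Vehicle and 17.1 to 31.3 CPM in PI3Ki (-1.15, adjusted p = 0.0581 by edgeR without PI3Ki replicate 5). H19, an imprinted non-coding RNA that holds Mir675, was at 87.4, 115, 50.7, 72.7 and 35.7 CPM in Vehicle and at 175, 275, 131 and 130 CPM in PI3Ki (1.30, adjusted p = 0.0111 by edgeR). Has2 and H19 were named after their values were seen. The transcript Igf2os fell (-1.38), and it overlaps Igf2 (-0.76, adjusted p = 0.171 by edgeR), whose reads the counts may not separate from it. Among the largest falls were also the growth factor gene Gdf3 (-2.04), the dicarboxylate transporter gene Slc13a3 (-1.93), Crym (-1.91), the mitochondrial methionyl-tRNA synthetase gene Mars2 (-1.16), Chga (-1.62), Kcnj10 (-1.48) and Megf10 (-1.36). The calls of Chga, Kcnj10 and Megf10 were lost without any of 9, 7 and 3 of the 9 tumors, with adjusted p up to 0.14, 0.112 and 0.0701 by edgeR without PI3Ki replicate 5.

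**Figure D5:**
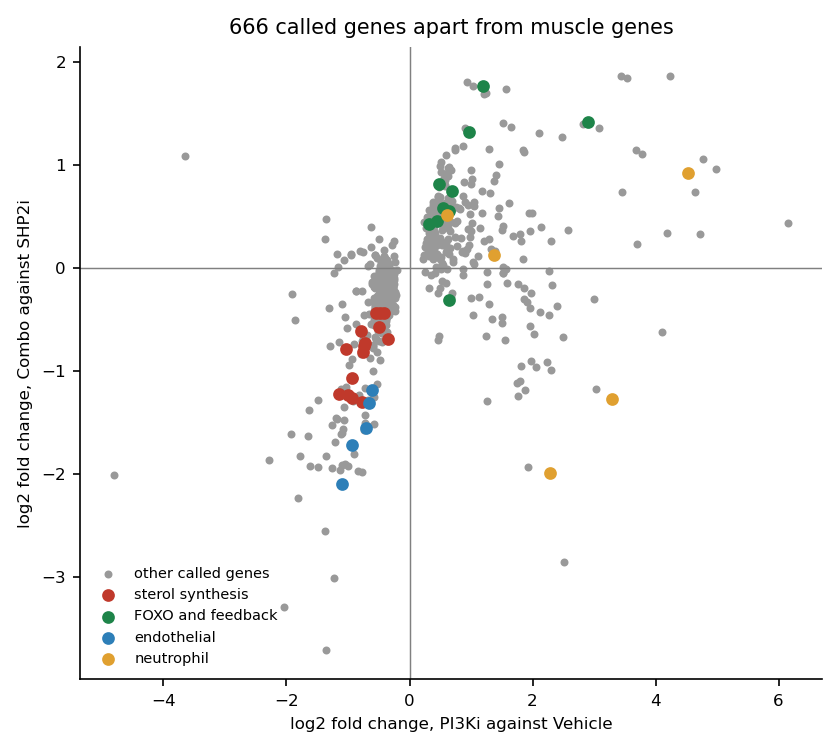
Log2 fold changes of the 666 genes called upon PI3Ki apart from muscle genes, for PI3Ki over Vehicle on the x axis and for Combo over SHP2i on the y axis, from separate tumors. Sterol and endothelial genes lie in the lower left and FOXO genes, with 1 exception, in the upper right, while neutrophil genes scatter on the right.

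Immune genes moved in both directions. Neutrophil genes had a median of 1.33 with 5 of 25 higher, and PI3Ki replicate 2 stood apart with a list mean of 2.90 against 0.089 to 0.42 in the other PI3Ki tumors. Without that tumor 1 was higher, and without Vehicle replicate 4 there were 0 by edgeR. The same tumor held 6255 CPM of erythroid genes, where the other PI3Ki tumors held 646 to 1226 CPM and Vehicle tumors 549 to 1157 CPM. It also had the highest Arg1 level, and the part of these cells in the result was not tested. Arg1, arginase of myeloid cells, was at 250, 185, 166, 116 and 118 CPM in Vehicle and at 391, 985, 374 and 643 CPM in PI3Ki (1.84, adjusted p = 0.0233 by edgeR, lost without any of 6 of the 9 tumors, and 0.0772 without PI3Ki replicate 2). Mgl2, a macrophage lectin, was at 11.5 to 27.9 CPM in Vehicle and 49.1 to 95.5 CPM in PI3Ki (2.05, up to 0.0644 by edgeR without Vehicle replicate 4, with 5 tumors that end the call). Ccl24, the eotaxin-2 ligand, was at 7.55 to 21.0 CPM in Vehicle and 36.2 to 65.5 CPM in PI3Ki (1.86), and the coagulation factor gene F10, which macrophages express, at 2.46 to 6.41 and 12.3 to 46.5 CPM (2.40).

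Other myeloid genes fell. Cx3cr1, the fractalkine receptor, was at 182, 231, 235, 258 and 258 CPM in Vehicle and at 163, 130, 159 and 132 CPM in PI3Ki (-0.67, SE 0.0954, adjusted p = 0.000332 by edgeR), with a log2 fold change of 0.016 in Combo against SHP2i and a difference that passed the test (adjusted p = 0.0147 by edgeR). Slamf9 (-1.38) was among the largest falls, and Cd72 (-1.05) and Cd300e (-4.80) were named after their values were seen. Cd300e was at 1.62 to 12 CPM in Vehicle and 0.0815 to 0.294 CPM in PI3Ki. Tnf was at 2.35 to 4.01 CPM in Vehicle and 0.774 to 1.51 CPM in PI3Ki (-1.65), with an adjusted p up to 0.0639 by edgeR without PI3Ki replicate 5 and the call also lost without PI3Ki replicate 1. Of 28 macrophage genes, 2 were higher and 1 lower. T and NK cell genes had 2 of 35 higher, Tigit (1.05) and Gzmk (0.85). Gzmk lies beside Esm1 on chromosome 13, and its CPM was close to that of Esm1 in every tumor (60.8 to 92.3 in PI3Ki, where Esm1 was at 59.7 to 90.8), and the counts of these neighbours cannot be told apart here. Both lost the call without any of the 9 tumors, with adjusted p up to 0.151 for Gzmk by edgeR. By edgeR, 0 of 20 B cell and 0 of 34 interferon genes were called.

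Some of the rises are in genes that muscle expresses. Of the 296 higher genes, 13 are on a list of 56 tested genes that muscle shares with other tissues, among them Mustn1 (2.48), Atp1b2 (2.13), Rtn2 (1.96) and Coq8a (1.40). Atp1b2 and Rtn2 followed the muscle level with correlations of 0.57 and 0.55, below the limit of 0.7, and their log2 fold changes in Combo against SHP2i were -0.43 and -0.39. Coq8a, a mitochondrial kinase of ubiquinone synthesis, rose in both settings (0.90 in Combo against SHP2i). Of 45 fibroblast genes 11 are muscle genes, among them Sfrp2, and the other 34 had a median of 0.45 with 3 higher, Sfrp1 (0.87), Loxl3 (0.34) and Thbs4 (3.43). Loxl3 lost its call without any of 3 of the 9 tumors (adjusted p up to 0.0822 by edgeR without PI3Ki replicate 1). Thbs4 was at 81.2 CPM in PI3Ki replicate 2 and 2.57 to 7.75 CPM in the other PI3Ki tumors, lost its call without any of 5 of the 9 tumors (adjusted p = 0.305 by edgeR without PI3Ki replicate 2), and had a log2 fold change of -4.62 with the muscle covariate. No gene of the muscle lists or of this shared list was lower.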

How the data were processed

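The authors enriched poly(A) RNA, built strand-marking libraries and sequenced both fragment ends. After cutadapt trimming, STAR placed the reads on GRCm38, and QuasR gave counts for each gene. The deposited files hold whole-number counts per gene and tumor, not normalized. Annotation and strand setting are not given in the sources used here, so overlapping genes may share reads. Identifiers without a symbol (32 of 22792) carried 0.0193% of the counts and were kept under their identifier.

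Counts were fitted with edgeR 4.0.16 (R 4.3.3) using filterByExpr (minimum count 10, total 15), TMM, 1 model over 18 tumors and quasi-likelihood tests, checked on simulated data. Members and gene lists were chosen with earlier results of these data known. The genes named were the 15 largest changes in each direction (adjusted p under 0.05, mean log2 CPM over 1, no overlap of tumors, not muscle genes), called members of lists, the 2 members with the smallest p of lists with fewer than 2 calls, and genes of PI3K subunits and Akt kinases. Some of these genes are not reported here. Others are said to be named after their values were seen. Nothing in the labels ties a tumor to a mouse, while the study's legends for these data count 4 to 5 animals per group. The p-values measure the spread between these samples. Alternatives were DESeq2 1.42.0, limma 3.58.1 (voom), other scalings, filters and muscle rules, a covariate, a replicate block and leaving out tumors. Promoter sequences are RefSeq's (GRCm38.p6).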

Additional observations from a re-analysis of the deposited data

Results flagged for a closer look

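A tumor stood apart from the rest of its group, by the gap to its neighbour over the range of the group, in 30 of 408 groups tested, and chance gives about 1 in 20. By the mean log2 CPM of a list relative to Vehicle, Vehicle replicate 3 was highest in the muscle lists together (0.80) and in muscle excitation genes (0.65), and Vehicle replicate 1 in immediate early genes (0.23) and ATF4 and amino acid genes (0.042). PI3Ki replicate 2 was highest in neutrophil (2.90) and lysosome genes (0.47), and PI3Ki replicate 3 in PI3K pathway genes (0.17). PI3Ki replicate 1 was lowest in dendritic cell (-0.29) and nerve genes (-0.24), and PI3Ki replicate 5 in sprouting genes (-0.28).

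Among single genes, PI3Ki replicate 2 was highest for Ccl17 (5.29 CPM), Ccl6 (1092 CPM), Cd177 (60.3 CPM), Gdf3 (1.72 CPM), Mpo (50 CPM), Pdk4 (25.9 CPM), Prg2 (31 CPM), Retnlg (74.6 CPM), Slc13a3 (1.47 CPM), Thbs4 (81.2 CPM) and Tmem97 (40.2 CPM). PI3Ki replicate 5 was lowest for Prkaa2 (1.39 CPM) and Slamf9 (5.87 CPM). Vehicle replicate 3 was highest for Cirbp (41.1 CPM), Des (12.9 CPM) and Pdk4 (4.01 CPM) and lowest for Elovl1 (48.7 CPM). Vehicle replicate 1 was highest for Elf3 (5.96 CPM), and Vehicle replicate 2 was highest for Srm (93.2 CPM) and lowest for Jag2 (13.5 CPM).

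For 34 of the genes examined singly, of which 27 were called upon PI3Ki, the effect of CLR457 differed between the tumors with and without SHP099 by edgeR's interaction test. The log2 difference, Combo over SHP2i minus PI3Ki over Vehicle, was above 0 for Cx3cr1 (0.69), Igf2os (1.66), Mars2 (1.17), Megf10 (1.83) and Myc (0.63). It was below 0 for the vessel genes Prnd (-1.79), Mcam (-0.93), F2rl3 (-1.13), Selp (-1.41), Cdh5 (-1.14), Kdr (-1.20) and Pecam1 (-0.84), and for Ddit4 (-0.95) and Ier3 (-1.29). Among genes that muscle expresses it was -0.65 for Ak1, -2.56 for Atp1b2, -3.48 for Cap2, -3.81 for Des, -2.73 for Prkaa2, -2.35 for Rtn2, -1.84 for Synm and -3.07 for Tpm2. The remaining values were -3.0 for Cxcl5, -2.77 for F10, -3.16 for F7, -3.01 for Mgl2, -4.27 for Retnlg, -0.94 for Sfrp1, -3.30 for Sfrp2 and -2.16 for Usp13. Among genes not called upon PI3Ki they also included -2.06 for Clca2, -0.64 for Idh1, -4.18 for Ppbp and -1.24 for Ube2c.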

How the results depend on the processing

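Apart from muscle genes, 296 genes were higher and 370 lower upon PI3Ki (109 and 49 with the fold limit), and 58 and 43 list members. DESeq2 gave 490 higher and 630 lower genes, 224 and 350 of them also called in Combo against SHP2i, and 1 fatty acid synthesis gene higher, 1 FOXO gene lower, 9 endothelial genes lower and 3 neutrophil genes higher. edgeR's likelihood ratio test gave 1 fatty acid synthesis gene higher, 8 endothelial genes lower and 9 neutrophil genes higher. limma voom gave 811 higher and 965 lower genes (92 lower with the fold limit), 111 and 90 list members, 351 and 394 also called in Combo against SHP2i, 19 FOXO genes higher and 1 lower, 19 endothelial genes lower, 2 neutrophil genes and 1 fatty acid synthesis gene higher. A minimum count of 50 left 70 genes higher with the fold limit, and taking out no gene left 218. The 9 tumors alone gave 8 endothelial genes lower and 1 fatty acid synthesis, 1 cell cycle and 1 neutrophil gene higher. A test against a 1.2-fold change gave 79 higher and 63 lower genes (57 and 27 with the fold limit), 19 and 19 list members, 19 and 40 also called in Combo against SHP2i, 1 fatty acid synthesis gene and 1 endothelial gene lower, 5 FOXO genes and 0 neutrophil genes higher. With the muscle level as a covariate, edgeR called 0 genes for every count (1430 at an unadjusted p under 0.05), and fitted log2 fold changes turned negative for Angptl1 (-1.19), C3 (-0.64), Cacnb1 (-0.00), Ccl6 (-1.11), Cd177 (-2.55), Cdkn1c (-1.24), Cxcl5 (-0.30), Gab1 (-0.40), Mmp9 (-0.49), Mpo (-5.82), Ms4a8a (-0.13), Pdk4 (-0.06), Prg2 (-5.04), Prkaa2 (-1.07), Retnlg (-1.99), Rragd (-0.49) and Thbs4 (-4.62). Leaving out PI3Ki replicate 2 and Vehicle replicate 3 together, chosen after seeing the data, gave 196 higher and 183 lower genes (56 higher with the fold limit), 32 and 28 list members, 129 lower genes also lower in Combo against SHP2i, 2 fatty acid synthesis and 3 endothelial genes lower and 1 neutrophil gene higher. The cause of these changes was not tested.

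Leaving out 1 tumor at a time gave 139 to 357 higher and 167 to 444 lower genes, 56 to 128 and 30 to 56 with the fold limit, 29 to 69 and 28 to 50 list members, and 62 to 157 and 111 to 216 also called in Combo against SHP2i. Over the lists it gave 12 to 16 sterol, 2 to 4 fatty acid synthesis and 2 to 7 endothelial genes lower, 6 to 13 FOXO genes higher and 0 to 1 lower, and 0 to 10 neutrophil genes higher. Of 151 called genes named here apart from muscle genes, 75 passed the test in every such fit.

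The labels do not say whether a shared replicate number pairs a PI3Ki and a Vehicle tumor. Correlations were 0.111, 0.029, 0.034 and -0.252 between same-numbered tumors and -0.32 to 0.263 between the others. So few values cannot decide whether the tumors were paired. With the replicate block, 220 genes were higher and 253 lower (68 and 34 with the fold limit), and 2 fatty acid synthesis genes and 1 FOXO gene were lower and 1 neutrophil gene higher.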
